A study of Rattus norvegicus with 60 samples.

Results

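Voltage-gated calcium and sodium channel genes were followed across 5 regions of the rat brain and between 2 rat lines. The genes were those whose symbol begins with Cacn, or with Scn and a number, in the array's probe table. They were kept where the mean log2 signal of a probe set (a group of probes read together as 1 transcript signal) reached the 40th percentile of all probe sets that are not controls, which was 7.68. Of 52 probe sets for 36 such genes, 33 probe sets for 25 genes passed this limit, among 18625 probe sets kept on the array. They held 24 probe sets of 18 calcium channel genes and 9 probe sets of 7 sodium channel genes. The 19 probe sets below the limit left 11 genes with no member: Scn9a, Scn11a, Scn8a, Cacng1, Cacng4, Cacng5, Cacng6, Cacng7, Scn7a, Cacna1s and Scn4a. A low probe set shows only that its own signal was low. Cacna1e lay just inside the limit with a mean of 7.78, and another probe set of Cacna1a lay just outside with 7.66.

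The samples were 60 arrays from 12 adult rats, each of which gave accumbens, amygdala, frontal cortex, hippocampus and striatum. There were 6 congenic NP.P rats and 6 NP rats, so each region held 6 arrays of either line, and the RNA of each rat was labelled singly. NP rats were selectively bred for not preferring alcohol, and NP.P rats carry, on that background, a piece of chromosome 4 from the P line, which prefers alcohol. The piece is not in the labels but is known of the study. All rats had been habituated to handling, and the labels' protocols name no drug and no sex. Whole pieces of tissue were measured, so fewer cells of a type and less RNA per cell cannot be told apart.

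Voltage-gated calcium channels consist of a pore-forming alpha subunit, which fixes the current type, and auxiliary alpha2delta and beta subunits that bring the channel to the membrane and tune its opening. Cav1 pores carry long-lasting L-type current, Cav2 pores the P/Q-, N- and R-type currents that trigger transmitter release, and Cav3 pores the low-threshold T-type current that supports burst firing. The gamma subunit family took its name from a muscle channel subunit, but its members Cacng2, Cacng3 and Cacng8 are known in brain as partners of AMPA-type glutamate receptors. Voltage-gated sodium channels, which start the action potential, have a pore subunit and single-pass beta subunits that also act in cell adhesion.

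Of the 60 arrays, 4 went against their region label and 7 in all stood apart by limits taken from an earlier account of these data (a median correlation with the region's other arrays under 0.98, or a correlation with the region's profile under 0.5). The array labelled amygdala congenic 3 correlated at 0.699 with the hippocampus profile and at -0.0674 with that of amygdala. The array labelled hippocampus congenic 3 correlated at 0.742 with the amygdala profile and at -0.0119 with that of hippocampus. The array labelled accumbens NP 8 correlated at 0.655 with the hippocampus profile and at -0.037 with that of accumbens, and hippocampus NP 8 at 0.388 with the accumbens profile and at -0.211 with its own. The other 3 matched their own region best but weakly or with a low median correlation. They were accumbens congenic 9 (0.235 with its own profile), amygdala NP 6 (0.237) and hippocampus NP 11 (0.578, with a median correlation under 0.98). All arrays kept their labels, and counts of called channel probe sets are given with all 60 arrays and with the remaining 53. The 7 were set apart by their match to their region, so tighter regional ranges without them follow in part from that choice. The same holds for smaller regional p. Array medians lay between 8.23 and 8.35.

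Every channel gene differed among regions. All 33 probe sets were called over the 5 regions in limma's F test (adjusted p under 0.05, animal as a block), against 93.3% of all probe sets, and again all 33 without the 7 arrays, against 97.1%. With this background the count alone sets the channel genes little apart. The span, the distance between the highest and lowest region mean, had a median of 0.57 log2 units over the channel probe sets and of 0.41 over all probe sets. It exceeded 1 log2 unit, a 2-fold difference, in 7 of the 33 and in 6.52% of all probe sets, and without the 7 arrays in 9 and in 7.66%. Scn4b, Cacnb3 and Scn1a were called at least 2-fold away from the mean of the other 4 regions in some region, which was 9.09% of the channel probe sets against 2.8% of all. Without the 7 arrays 5 probe sets of 4 genes were, with Cacng8 and the second probe set of Scn3b added, against 3.5% of all.

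Striatum was the region in which channel genes were most often high. Against the mean of the other 4 regions, 17 of 33 probe sets were higher in striatum (51.5%), where 26.3% of all probe sets were, and 4 were lower (12.1%), where 43.3% of all were. With the 53 arrays these were 18 and 6, against 29.7% and 48.4% of all. The median difference for striatum was 0.12 log2 units over the channel probe sets and -0.07 over all. The striatum held the highest mean for 10 of the 33 and the lowest for 1, while over all probe sets it held the highest for 18.1% and the lowest for 35.4%. Over the 53 arrays it held the highest for 11 and the lowest for 1, against 16.6% and 34% of all. Upper quartiles of the deposited arrays differed by region and were lower in striatum than in frontal cortex. With quantile normalization 1 channel probe set was lower in striatum, and the share of all probe sets in that setting is not given here.

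In the other regions lower calls outnumbered higher ones. In accumbens 6 channel probe sets were higher and 16 lower, where 23.5% and 38.9% of all probe sets were called, and without the 7 arrays 9 were higher and 17 lower, against 25.6% and 44.8%. The lowest of the 5 means was in accumbens for 14 of the 33, against 26.4% of all probe sets, and without the 7 arrays for 11, against 25.5%. In frontal cortex 11 were higher and 14 lower, against 35.6% and 25.7% of all, and without the 7 arrays 13 and 16, against 41.8% and 30.6%. In hippocampus 9 were higher and 12 lower, against 33.1% and 21.2% of all, and without the 7 arrays 11 and 14, against 38.4% and 26.4%. In amygdala 9 were higher and 11 lower, against 29.1% and 18.6% of all, and without the 7 arrays 10 and 18, against 39.2% and 23.7%. These are shares of probe sets in the same arrays, and no test of the list as a whole was made.

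**Figure D1:**
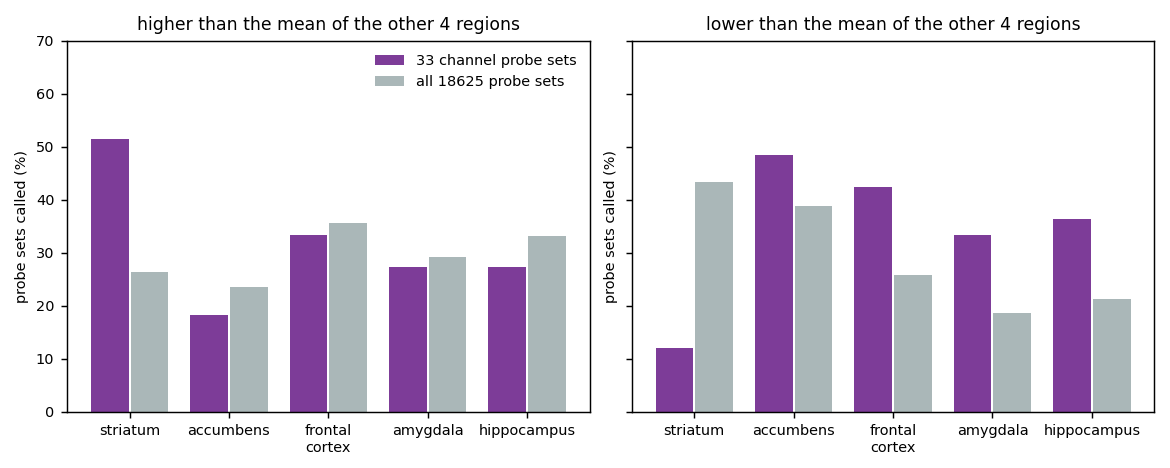
Percentage of probe sets called higher (left) or lower (right) in each region than the mean of the other 4 regions, for the 33 channel probe sets (purple) and all 18625 probe sets (grey), from all 60 arrays. In striatum 51.5% of the channel probe sets were higher and 12.1% lower, against 26.3% and 43.3% of all.

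**Figure D2:**
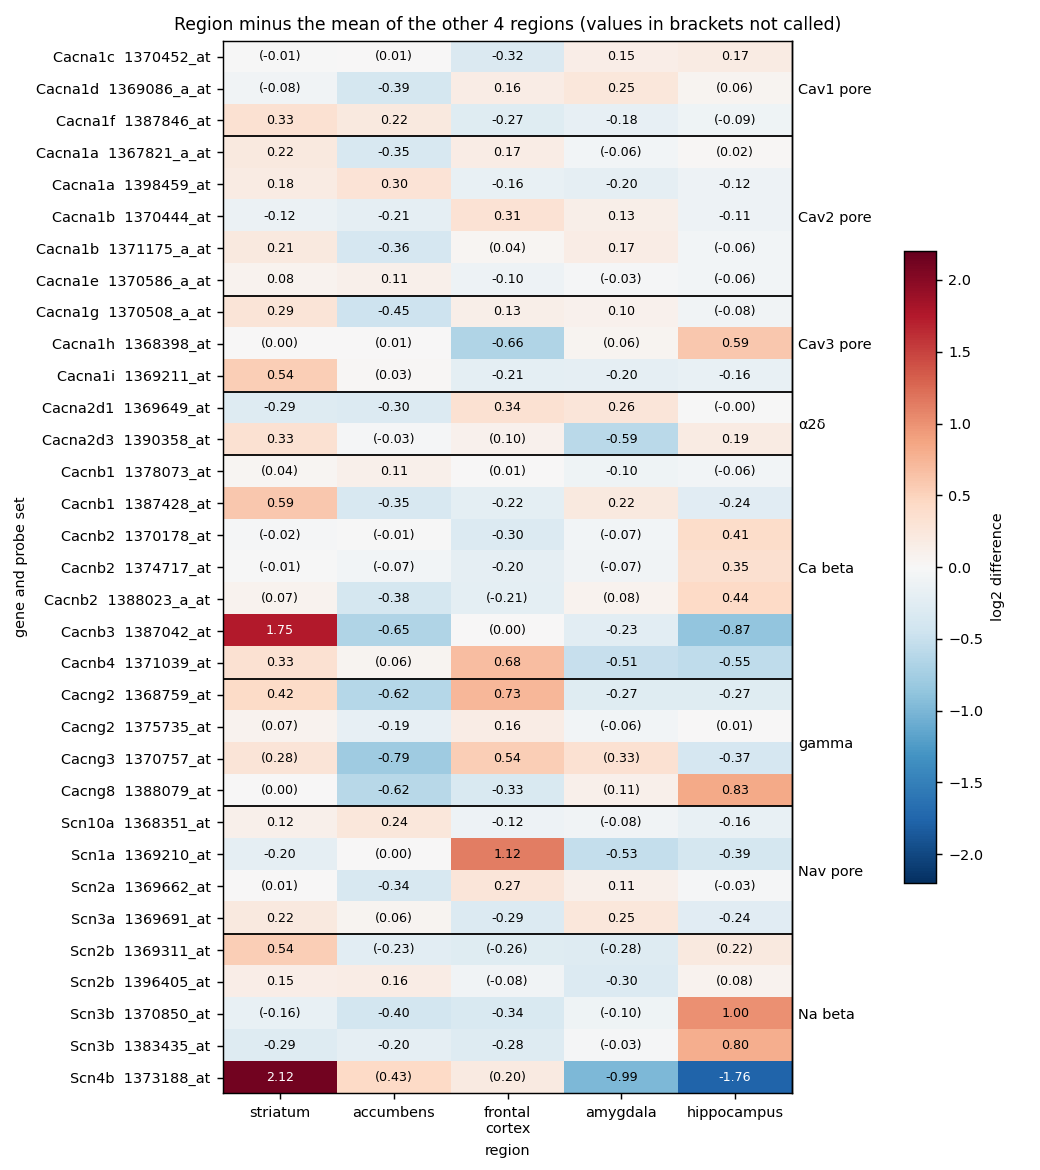
Log2 difference of each region (columns) from the mean of the other 4, for each of the 33 channel probe sets (rows, grouped by role), from all 60 arrays. Values in brackets were not called, and the 2 darkest red cells are Scn4b (2.12) and Cacnb3 (1.75) in striatum.

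Among the L-type pores, regional differences were small. Cacna1c, the main L-type pore of brain and heart, was lower in frontal cortex than in the other regions by 0.32 ± 0.05 log2 units (SE, adjusted p = 3.28e-08). Its lowest, median and highest values were 8.82, 8.91 and 9.07 in frontal cortex, and its medians in the other regions ran between 9.17 and 9.31. Cacna1d, an L-type pore that opens at more negative voltages, was lowest in accumbens, with values of 7.97, 8.71 and 8.97 there (lowest, median and highest of 12 arrays), and medians between 8.89 and 9.23 elsewhere. Its accumbens difference was -0.39 ± 0.05 (adjusted p = 7.06e-09). Cacna1f, best known from the retina, had a difference of 0.33 ± 0.06 in striatum (adjusted p = 7.94e-06) and -0.27 ± 0.06 in frontal cortex, with overlapping ranges.

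The Cav2 pores of nerve terminals also moved little, and their probe sets did not always tell the same story. Cacna1b, the N-type pore, was highest in frontal cortex on its brighter probe set, with 10.56, 10.73 and 10.85 there (lowest, median, highest) and medians between 10.28 and 10.64 in the other regions, a difference of 0.31 ± 0.04 (adjusted p = 1.35e-09). The second Cacna1b probe set was lower in accumbens, as the first was, by 0.36 ± 0.04, but called in the opposite direction in striatum. Cacna1a, the P/Q-type pore, was higher in accumbens by 0.30 ± 0.03 on its brighter probe set and different by -0.35 ± 0.06 on the other, and the pair was called in opposite directions in 2 regions. No regional direction is therefore given for Cacna1a in accumbens or frontal cortex, while both probe sets were higher in striatum, by 0.18 ± 0.03 and 0.22 ± 0.06. Cacna1e, the R-type pore, spanned 0.17 log2 units, the smallest span of any gene's brighter probe set, and it lay close to the signal limit.

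The 3 T-type pores each had a pattern of their own. Cacna1h was high in hippocampus and low in frontal cortex. Its values were 9.04, 9.50 and 9.75 in hippocampus (lowest, median and highest of 12 arrays), 8.21, 8.46 and 8.79 in frontal cortex, and the medians of the other 3 regions were 8.99, 9.02 and 9.05. Hippocampus differed from the other regions by 0.59 ± 0.07 (1.5-fold, adjusted p = 2.99e-09) and frontal cortex by -0.66 ± 0.07 (adjusted p = 7.29e-11), and the ranges of these 2 regions did not overlap. Cacna1i was high in striatum, with 8.38, 8.55 and 8.77 there and no array of another region above 8.35, a difference of 0.54 ± 0.04 (1.46-fold, adjusted p = 3.38e-15). Cacna1g was low in accumbens, with 8.66, 8.92 and 9.13 there and medians between 9.20 and 9.51 elsewhere, a difference of -0.45 ± 0.04 (adjusted p = 2.94e-14), and it too was higher in striatum, by 0.29 ± 0.04.

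The alpha2delta genes with a probe set under the symbol rule were Cacna2d1 and Cacna2d3. Cacna2d3 was low in amygdala, with 10.96, 11.09 and 11.83 there, and its medians in the other regions ran between 11.75 and 11.92. Amygdala differed by -0.59 ± 0.07 (1.51-fold lower, adjusted p = 9.63e-10). The highest amygdala value, 11.83, came from NP 6, one of the 7 arrays. Cacna2d1, the binding site of gabapentin, was higher in frontal cortex by 0.34 ± 0.10 and in amygdala by 0.26 ± 0.10, and lower in accumbens and striatum by 0.30 ± 0.10 and 0.29 ± 0.10. Its regional ranges all overlapped.

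The calcium channel beta subunits, which bind the pore from inside the cell, held one of the widest differences. Cacnb3 was higher in striatum than anywhere else. Its lowest, median and highest values were 11.60, 11.90 and 12.08 in striatum, 10.30, 10.44 and 10.64 in frontal cortex, and 10.06, 10.26 and 10.61 in amygdala. In accumbens they were 9.59, 9.96 and 10.26, and in hippocampus 9.56, 9.68 and 10.06. No striatal array overlapped any array of the other 4 regions, whose ranges overlapped each other in their order of means. Striatum differed from the other regions by 1.75 ± 0.06 log2 units, 3.36-fold (adjusted p = 3.28e-29), and hippocampus and accumbens were lower by 0.87 ± 0.06 and 0.65 ± 0.06. The neighbouring accumbens, also part of the striatal complex, was thus on the low side for Cacnb3.

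The other beta subunits peaked elsewhere. Cacnb4 was high in frontal cortex, with 8.36, 8.54 and 8.76 there, and low in amygdala and hippocampus, with medians of 7.62 and 7.63. Frontal cortex differed by 0.68 ± 0.09 (1.60-fold, adjusted p = 2.33e-09), and its lowest array lay above the highest of accumbens, amygdala and hippocampus but not of striatum. Cacnb2 was highest in hippocampus on all 3 of its probe sets, by 0.41 ± 0.05, 0.35 ± 0.05 and 0.44 ± 0.11. Cacnb1, the beta subunit known from skeletal muscle channels, was higher in striatum on its brighter probe set, with 10.70, 10.89 and 11.06 there and medians between 10.20 and 10.62 elsewhere, a difference of 0.59 ± 0.06 (adjusted p = 1.42e-12). The other Cacnb1 probe set differed in striatum by 0.04 ± 0.03 (adjusted p = 0.307), so the striatal difference rests on 1 probe set. The pair was called in opposite directions in 2 regions.

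Of the gamma family, Cacng8 was highest in hippocampus. Its values were 8.52, 9.38 and 9.68 in hippocampus, 7.23, 8.15 and 8.67 in accumbens, and its medians in frontal cortex, striatum and amygdala were 8.38, 8.55 and 8.64. Hippocampus differed by 0.83 ± 0.12 (1.78-fold, adjusted p = 1.92e-07), and by 1.05 ± 0.10 (2.06-fold) without the 7 arrays. Cacng3 was higher in frontal cortex by 0.54 ± 0.15 (adjusted p = 0.00132) and lower in accumbens by 0.79 ± 0.15 (adjusted p = 9.32e-06). Its accumbens values were 6.99, 10.25 and 10.38, and the lowest came from congenic 9, one of the 7 arrays. Without them the accumbens difference was -0.49 ± 0.04 (adjusted p = 2.93e-15), smaller by over 1.5 times on the log2 scale. Cacng2, known as stargazin, was higher in frontal cortex and lower in accumbens on both probe sets, by 0.16 ± 0.04 and -0.19 ± 0.04 on the brighter one and by 0.73 ± 0.04 and -0.62 ± 0.04 on the other.

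Sodium channel pores were led by Scn1a. This pore, known in mouse for carrying the current of fast-spiking inhibitory neurons, was highest in frontal cortex. Its values were 12.29, 12.44 and 12.86 in frontal cortex, 11.05, 11.61 and 12.05 in accumbens, and 11.09, 11.45 and 11.69 in striatum. In hippocampus they were 11.06, 11.27 and 11.58, and in amygdala 10.93, 11.12 and 11.52. The frontal cortex arrays lay above all others, and the remaining regions overlapped their neighbours. Frontal cortex differed by 1.12 ± 0.06 log2 units (2.18-fold, adjusted p = 6.49e-21), and amygdala and hippocampus were lower by 0.53 ± 0.06 and 0.39 ± 0.06.

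The pores beside it moved less. Scn2a, a main pore of excitatory neurons, was higher in frontal cortex by 0.27 ± 0.04 (adjusted p = 1.99e-08) and lower in accumbens by 0.34 ± 0.04 (adjusted p = 2.66e-11), where its values were 11.24, 11.60 and 11.71. Scn3a, a pore known for its high level before birth, was higher in amygdala and striatum by 0.25 ± 0.09 and 0.22 ± 0.09 and lower in frontal cortex and hippocampus by 0.29 ± 0.09 and 0.24 ± 0.09. Without the 7 arrays its hippocampus difference was -0.37 ± 0.06 and its accumbens difference 0.23 ± 0.06 (adjusted p = 0.000522), where all arrays gave 0.06 ± 0.09 (adjusted p = 0.562) in accumbens. Scn10a, a pore of sensory neurons, was higher in accumbens by 0.24 ± 0.04 and lower in hippocampus by 0.16 ± 0.04, with all values between 7.64 and 8.32, close to the signal limit.

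Sodium channel beta subunits held the widest regional difference of all channel genes. Scn4b, whose product shapes the resurgent current that lets neurons fire at high rates, spanned 3.11 log2 units (8.63-fold) between striatum and hippocampus. Its lowest, median and highest values were 12.89, 13.29 and 13.52 in striatum, 9.95, 12.08 and 12.39 in accumbens, and 11.42, 11.69 and 12.06 in frontal cortex. In amygdala they were 9.69, 10.48 and 12.78, and in hippocampus 9.65, 9.91 and 12.12. Striatum lay above every array of the other regions, and differed from them by 2.12 ± 0.21 log2 units (4.36-fold, adjusted p = 1.5e-12). Hippocampus was lower by 1.76 ± 0.21 (3.39-fold, adjusted p = 1.31e-09) and amygdala by 0.99 ± 0.21 (adjusted p = 9.88e-05).

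The 7 arrays bear directly on Scn4b. The lowest accumbens value, 9.95, and the highest hippocampus value, 12.12, both came from NP 8, and the highest amygdala value, 12.78, from NP 6. Without the 7 arrays the hippocampus range was 9.65 to 9.99 and the accumbens range 11.68 to 12.39, and the striatal difference was 2.17 ± 0.11 (adjusted p = 2.23e-21). Scn4b was then also higher in accumbens, by 0.73 ± 0.12 (adjusted p = 7.65e-07), where all 60 arrays gave 0.43 ± 0.21 (adjusted p = 0.0652), and in frontal cortex, by 0.24 ± 0.11 (adjusted p = 0.045), where they gave 0.20 ± 0.21 (adjusted p = 0.413). In amygdala the spread stayed wide without them, between 9.79 and 11.87.

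Scn3b had its peak in hippocampus. Values were 12.66, 13.50 and 13.73 in hippocampus, and the medians of the other regions lay between 12.48 and 12.64. Hippocampus differed by 0.80 ± 0.09 (1.74-fold, adjusted p = 2.64e-10), and by 1.00 ± 0.11 on the second probe set. Both low hippocampal arrays, at 12.66, were congenic 3 and NP 8, and the highest accumbens and amygdala values, 13.63 and 13.48, were on accumbens NP 8 and amygdala congenic 3. On the 53 arrays the hippocampus range, 13.37 to 13.70, lay above all others, and the difference was 0.97 ± 0.04 (1.95-fold, adjusted p = 3.06e-26). Scn2b was lower in amygdala by 0.30 ± 0.05 (adjusted p = 1.98e-06) and higher in accumbens and striatum by 0.16 ± 0.05 and 0.15 ± 0.05 on its brighter probe set, and its second probe set was higher in striatum, by 0.54 ± 0.14. The highest accumbens value of the brighter probe set, 13.01, came from congenic 9, and over the 53 arrays its accumbens difference was 0.09 ± 0.04 (adjusted p = 0.0437).

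**Figure D3:**
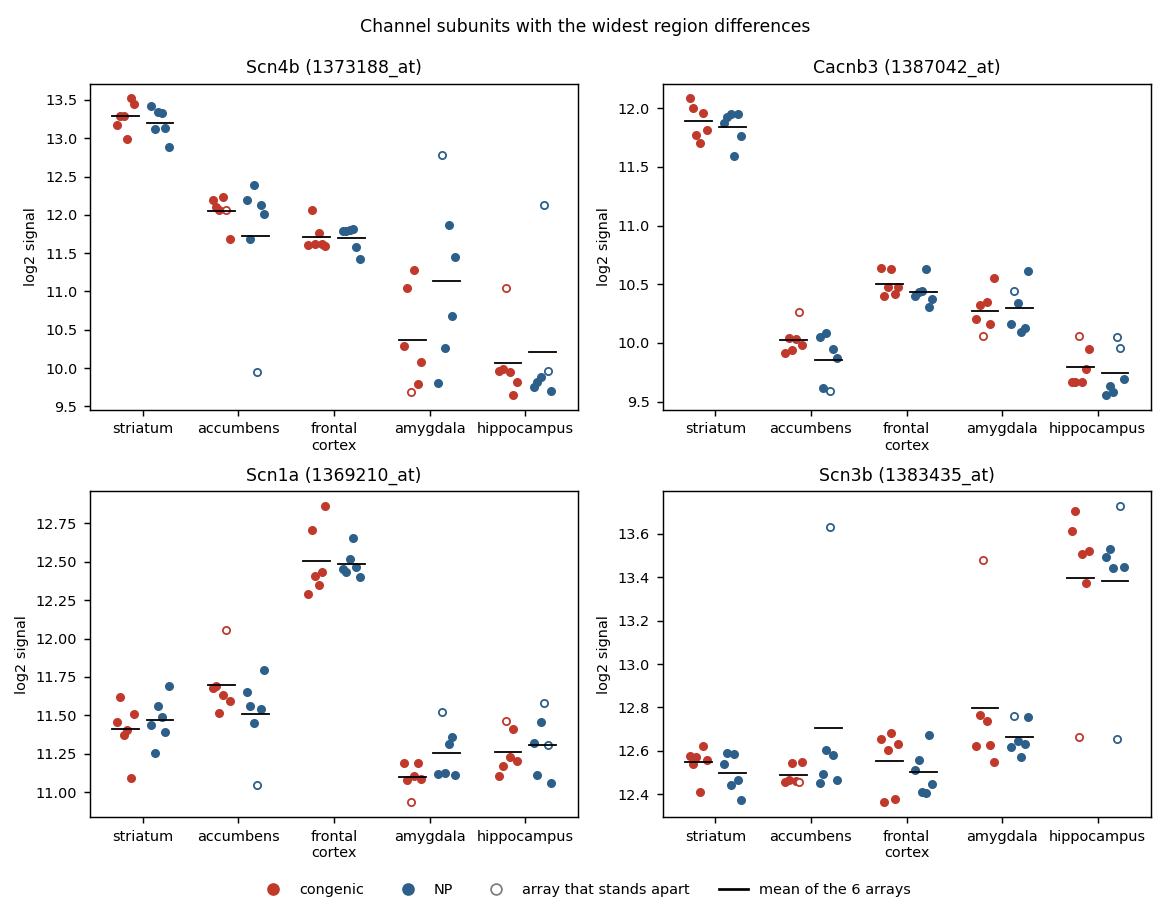
Log2 signal of Scn4b, Cacnb3, Scn1a and Scn3b on each of the 60 arrays by region, with congenic rats (red) left of NP rats (blue) and black lines at the mean of the 6 arrays. Hollow points are the 7 arrays that stand apart. Striatal Scn4b lies between 12.89 and 13.52 and striatal Cacnb3 between 11.60 and 12.08, above every array of the other regions.

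Cacnb3 and Scn4b, the 2 genes highest in striatum by more than 2-fold, were set beside each other in sequence as well. The 250 bases before the start of each gene are from RefSeq's rat assembly GRCr8, at chr7:131666301-131666550 (Cacnb3) and chr8:54343623-54343872 (Scn4b), both on the + strand. Capitals mark GC boxes (GGGCGG) and E boxes (CANNTG) found on either strand.
Cacnb3: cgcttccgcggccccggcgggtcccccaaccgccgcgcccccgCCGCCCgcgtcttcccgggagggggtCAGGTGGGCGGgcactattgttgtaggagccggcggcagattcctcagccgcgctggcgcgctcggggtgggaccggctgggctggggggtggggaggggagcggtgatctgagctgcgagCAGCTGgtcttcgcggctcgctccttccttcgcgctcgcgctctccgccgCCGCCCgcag
Scn4b: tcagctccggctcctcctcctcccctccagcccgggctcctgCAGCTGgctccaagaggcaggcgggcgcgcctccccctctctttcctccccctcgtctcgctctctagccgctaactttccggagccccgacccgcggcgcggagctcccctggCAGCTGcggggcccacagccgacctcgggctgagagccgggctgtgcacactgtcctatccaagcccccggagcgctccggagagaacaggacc
Both windows were rich in G and C, at 76.4% in Cacnb3 and 71.6% in Scn4b, where the median over 27457 rat promoter windows was 52%. Cacnb3 held 3 GC boxes and 2 E boxes, 1 of which overlaps a GC box, and Scn4b held 2 E boxes and no GC box. Of all windows, 32.4% held a GC box and 65.2% an E box, and of the 18 channel genes with a window 9 held a GC box and 12 an E box. A TATA box (TATAAA) was in 1 of the 18 and in 13.1% of all windows, and a cyclic AMP response element (TGACGTCA) in none of the 18 and in 1.7% of all. Such matches describe the letters of these windows only.

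Cell type markers also differed among regions. Of all probe sets, 26.3% were higher and 43.3% lower in striatum, and 23.5% and 38.9% in accumbens. These shares were 35.6% and 25.7% in frontal cortex, 33.1% and 21.2% in hippocampus, and 29.1% and 18.6% in amygdala. Of 9 measured markers of medium spiny neurons, the main striatal cell type, all 9 were higher in striatum and 8 in accumbens (9 without the 7 arrays), and all 9 were lower in frontal cortex and hippocampus. Their mean level lay between 11.8 and 12.6 on striatal arrays, 8.84 and 11.9 on accumbens arrays and 8.91 and 11.9 on hippocampal arrays (8.91 to 9.09 in hippocampus without the 7 arrays). Scn4b was high in striatum, low in hippocampus and not low in frontal cortex. Cacnb3 was high in striatum and low in accumbens and hippocampus. In frontal cortex 4 of 7 markers of inhibitory neurons were higher and 2 lower. Pvalb, the marker of fast-spiking cells, was higher by 1.70 ± 0.10 (adjusted p = 3.45e-19), while Gad1 and Gad2, which make the transmitter GABA in all inhibitory neurons, differed by -0.34 ± 0.07 and -0.63 ± 0.19. The mean of the 7 lay between 12.0 and 12.2 on frontal cortex arrays, and its median elsewhere between 11.4 and 11.7. In hippocampus 5 of 7 markers of hippocampal cells were higher, and their mean level there lay between 9.58 and 10.6 (10.4 to 10.6 without the 7 arrays). Of 8 measured markers of cortical excitatory neurons, 5 were higher and 0 lower in striatum, and 5 were higher and 1 lower in frontal cortex. In accumbens 0 were higher and 6 lower, in amygdala 0 and 4, and in hippocampus 3 and 4. Their mean level lay between 10.2 and 10.5 on striatal arrays and between 9.89 and 10.4 on frontal cortex arrays. Slc17a7, Nr4a2 and Tbr1 had their highest mean in striatum, Fezf2, Lamp5, Cux2 and Rorb in frontal cortex, and Neurod6 in hippocampus. Of 5 oligodendrocyte markers, 4 were higher in striatum and 4 in hippocampus, and 4 were lower in amygdala and 4 in frontal cortex. All 6 astrocyte markers were higher in hippocampus and 5 were lower in striatum, all 5 endothelial markers were higher in frontal cortex, and 4 of 6 microglial markers were higher in amygdala. Of 6 listed markers of choroid plexus 2 were measured, and both were higher in hippocampus. Their mean level there lay between 8.25 and 13.6 (10.9 to 13.6 without the 7 arrays), with a median of 12.9, and the medians of the other regions lay between 7.83 and 9.29. The part of cell makeup in the channel differences was not tested.

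Genes that work with the channels varied as well. Of 11 measured partners of calcium channels, 9 were higher in frontal cortex and 1 lower, where 35.6% and 25.7% of all probe sets were. In striatum 7 were higher and 0 lower, where 26.3% and 43.3% of all were. In accumbens 1 was higher and 8 lower, where 23.5% and 38.9% of all were. Without the 7 arrays these were 10 and 1 (41.8% and 30.6% of all), 7 and 1 (29.7% and 48.4%), and 1 and 8 (25.6% and 44.8%). Stac2, an adaptor of L-type channels, was higher in striatum by 1.99 ± 0.08 (adjusted p = 4.18e-26) and lower in hippocampus by 1.20 ± 0.08. Rem2, a small GTPase that binds beta subunits, was higher in striatum by 0.97 ± 0.11 and lower in frontal cortex, at -1.59 ± 0.11, and Stx1a, a release-machinery protein that binds Cav2 pores, was higher in frontal cortex by 0.87 ± 0.08. Of 13 measured partners of sodium channels, 7 were higher in frontal cortex and 2 lower, where 35.6% and 25.7% of all probe sets were, and their median difference was 0.09. Fgf12, which binds the pore's tail, was higher there by 0.53 ± 0.05 (adjusted p = 9.8e-12). Of 19 measured genes of calcium stores and export, 11 were higher and 6 lower in striatum, where 26.3% and 43.3% of all probe sets were, and 5 were higher and 10 lower in frontal cortex, where 35.6% and 25.7% of all were. Ryr3, a calcium release channel of internal stores, was lower in frontal cortex by 1.43 ± 0.07 and higher in striatum by 0.51 ± 0.07.

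Between the lines, no channel gene passed the test. In the mean over the 5 regions of each rat, 0 of 33 probe sets were called between 6 congenic and 6 NP rats in limma. Of all probe sets 0.123% were called. An unadjusted p under 0.05 was found for 2 of the 33 and for 5.33% of all. Within regions 0 of 33 were called in each, where the calls among all probe sets were 0.0644% in striatum, 0.0537% in frontal cortex, 0.0322% in amygdala, and 0.00537% in accumbens and again 0.00537% in hippocampus. Unadjusted p lay under 0.05 for 2 of the 33 in each of striatum, frontal cortex and amygdala, and for 0 in accumbens and hippocampus. Over all probe sets the shares were 4.86%, 6.38%, 5.96%, 1.97% and 3.95%, in the same order of regions. The line-by-region interaction called 0 of 33 and 0% of all probe sets, and 1 channel probe set had an unadjusted p under 0.05, against 3.9% of all.

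Leaving out the 7 arrays called no channel gene either. Among all probe sets the calls were then 0.156% in the mean over regions, 0.0966% in amygdala, 0.0644% in striatum, 0.0537% in frontal cortex, 0.043% in accumbens, 0.0376% in hippocampus and 0.0107% for the interaction. An unadjusted p under 0.05 was found for 2 of the 33 in the mean, 5 in amygdala, 1 in accumbens, 2 in each other region and 6 in the interaction. Over all probe sets the shares were 4.99% in the mean, 7.08% in amygdala, 6.56% in accumbens and 10.8% in the interaction. In hippocampus, frontal cortex and striatum they were 7.77%, 6.38% and 4.86%. Over all 60 arrays, the 95% intervals of the 33 differences in the mean reached down to -0.35 and up to 0.27 log2 units. A p that misses the threshold does not show equal levels.

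Cacna2d1 and Cacna1c were the channel genes on chromosome 4. The bounds of the piece from the P line were not used, so whether either gene lies in it is not known here. Cacna2d1 averaged 10.96 ± 0.19 in congenic rats and 10.83 ± 0.06 in NP rats (SD, n = 6 each), a difference of 0.12 ± 0.07 in the mean over regions (limma, adjusted p = 0.911, 95% interval -0.03 to 0.27). Its frontal cortex values were 11.00, 11.27 and 11.70 in congenic rats (lowest, median, highest) and 10.86, 11.03 and 11.11 in NP rats, overlapping groups that differed by 0.32 ± 0.12 (limma, adjusted p = 0.70). In accumbens they were 9.18, 10.90 and 11.23 in congenic rats and 10.21, 10.60 and 10.97 in NP rats, and the lowest was the array of congenic 9. Without the 7 arrays the accumbens difference was 0.42 ± 0.12 (limma, adjusted p = 0.633). The difference in the mean, over the arrays left for each rat, was then 0.22 ± 0.06 (limma, unadjusted p = 0.00111, adjusted p = 0.356). Its 95% interval was 0.10 to 0.34, with 11.04 ± 0.13 in congenic and 10.82 ± 0.10 in NP rats (SD, n = 6 each). Cacna2d1 had the smallest p of the 33 in that setting, and the size of the difference depended on the 7 arrays by more than 1.5 times. Cacna1c averaged 9.19 ± 0.05 in congenic and 9.16 ± 0.05 in NP rats (SD, n = 6 each), a difference of 0.03 ± 0.03 (limma, unadjusted p = 0.345).

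The smallest p over all arrays in the mean belonged to Cacnb3, Scn3a and Cacna1h. Cacnb3 averaged 10.50 ± 0.03 in congenic and 10.43 ± 0.04 in NP rats (SD, n = 6 each), a difference of 0.07 ± 0.03 (limma, unadjusted p = 0.0195, adjusted p = 0.911). Scn3a averaged 10.99 ± 0.13 in congenic and 11.10 ± 0.05 in NP rats, a difference of -0.11 ± 0.05 (limma, unadjusted p = 0.0449), and Cacna1h 9.03 ± 0.05 in congenic and 8.96 ± 0.07 in NP rats, a difference of 0.07 ± 0.03 (limma, unadjusted p = 0.055). None of these 3 was called.

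Scn3a in amygdala stood out among the regions. Its values were 10.69, 11.17 and 11.30 in congenic rats and 11.37, 11.41 and 11.50 in NP rats. The groups did not overlap, and the difference of -0.36 ± 0.09 had the smallest unadjusted p of any channel gene in any region with all arrays (limma, 0.00175), with an adjusted p of 0.386 where 0.0322% of all probe sets were called. Over the 53 arrays it was -0.28 ± 0.07, still without overlap (limma, adjusted p = 0.235). The share of all probe sets whose groups do not overlap in amygdala is not given here. In the other regions Scn3a differed by -0.21 ± 0.11 in frontal cortex and by less than 0.03 in striatum, hippocampus and accumbens. The smallest p in the other regions belonged to Scn2a in accumbens (-0.15 ± 0.08, limma adjusted p = 0.946), the second probe set of Cacna1b in hippocampus (0.14 ± 0.07, limma adjusted p = 0.982) and Cacng2 in striatum (0.12 ± 0.05, limma adjusted p = 0.988).

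**Figure D4:**
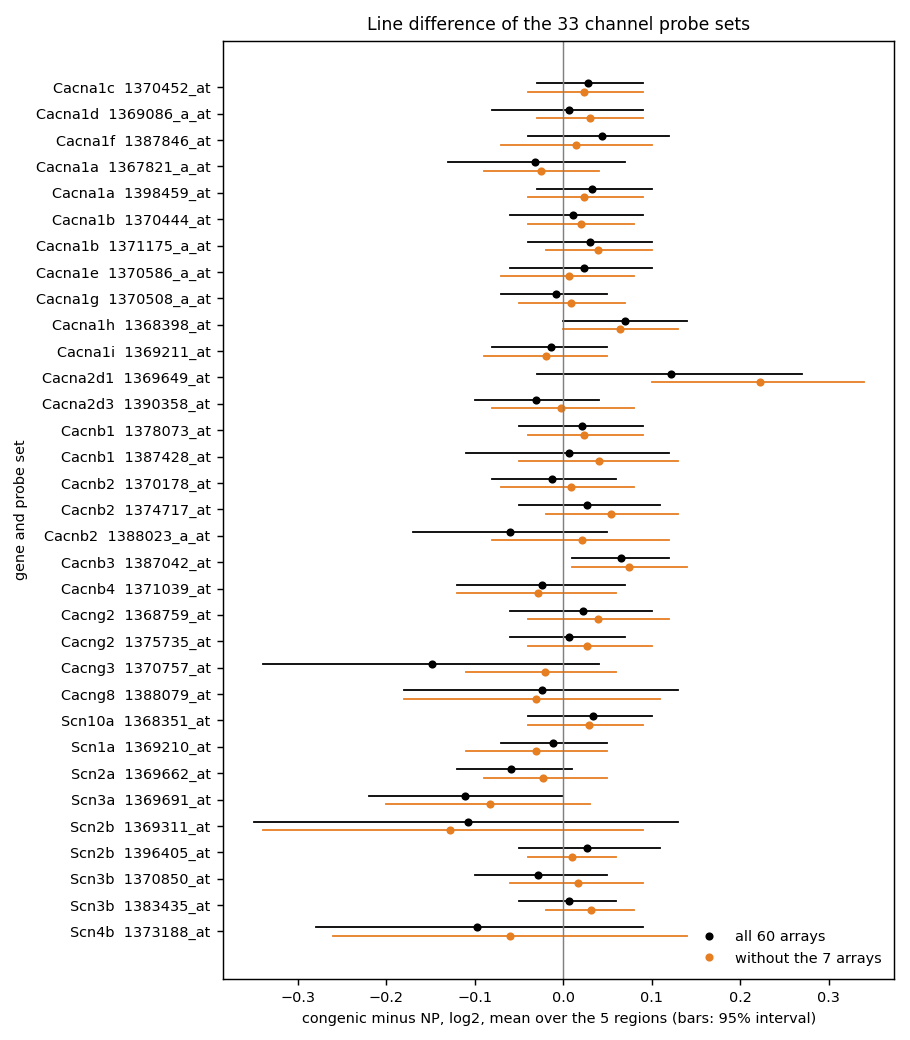
Difference between lines (congenic minus NP, log2) in the mean over the 5 regions for each of the 33 channel probe sets, from all 60 arrays (black) and without the 7 arrays (orange), with 95% intervals. Most intervals cross 0, that of Cacna2d1 without the 7 arrays runs from 0.10 to 0.34, and no probe set was called.

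**Figure D5:**
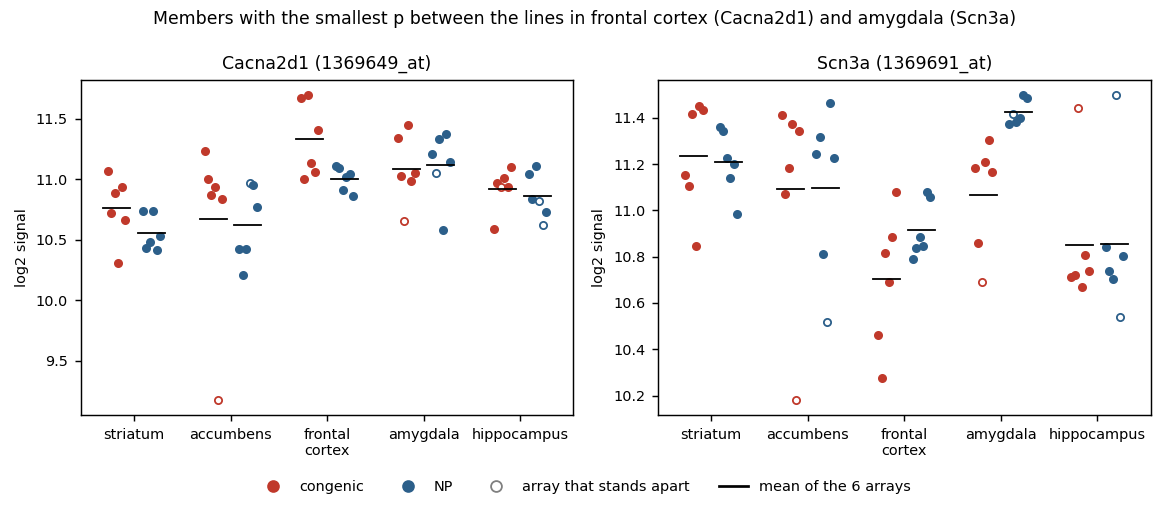
Log2 signal of Cacna2d1 and Scn3a on each array by region, with congenic rats (red) left of NP rats (blue), black lines at the mean of the 6 arrays and the 7 arrays that stand apart hollow. In amygdala the congenic values of Scn3a (10.69 to 11.30) lie below the NP values (11.37 to 11.50), a difference that was not called. The low accumbens value of Cacna2d1 (9.18) is a hollow point.

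Both probe sets of Cacng2 had the smallest interaction p over all arrays, at 0.0389 and 0.0879 (limma F test, adjusted p = 0.998 for either). The difference of the brighter one was -0.15 ± 0.06 in amygdala, with 9.26 ± 0.08 in congenic and 9.41 ± 0.09 in NP rats (SD, n = 6 each), and 0.13 ± 0.06 in frontal cortex, with 9.57 ± 0.13 in congenic and 9.44 ± 0.07 in NP rats. The second probe set ran the other way in amygdala, with 9.13 ± 0.15 in congenic and 9.01 ± 0.14 in NP rats, so the pair disagreed there. Without the 7 arrays the smallest interaction p was that of the second Scn2b probe set (limma F test, unadjusted p = 0.00228, adjusted p = 0.203). In amygdala this probe set then ran from 7.40 to 8.22 in congenic rats and from 8.07 to 8.93 in NP rats, a difference of -0.74 ± 0.18 (limma, adjusted p = 0.192). The brighter Scn2b probe set did not share it, with an amygdala mean of 11.83 in congenic and 11.83 in NP rats in the same setting. Its interaction p was 0.42 (limma F test, unadjusted).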

How the data were processed

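RNA of 60 brain samples (5 regions of 12 rats) was hybridized to Affymetrix rat arrays. The authors deposited log2 values for 31099 probe sets, already summarized from the probes. Their background correction and normalization are not given in the sources used here. Upper quartiles of single arrays lay up to 0.249 apart and differed by region. They ran from 9.758 to 9.862 in striatum, 9.795 to 9.938 in accumbens and 9.883 to 9.982 in amygdala. In hippocampus they ran from 9.938 to 9.998 and in frontal cortex from 9.926 to 10.01. The highest accumbens value was on congenic 9 and the lowest amygdala value on congenic 3, both among the arrays that stand apart. No 2 arrays were identical. Arrays have no read depth, and the number of rats limits the precision.

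The channel genes, the partner and marker lists and the limits for arrays that stand apart were chosen with earlier results of these data known. After 57 control probe sets were left out, probe sets with a mean at or above the 40th percentile were tested, 18625 in all. Each gene was shown by its probe set with the highest mean, and levels were not compared between probe sets. Tests ran in R 4.3.3 with limma 3.58.1. Plots were made in matplotlib 3.10.9 under Python 3.11.15. Lines were compared in limma on the mean of the 5 values of each rat and within each region. Regions were compared with the mean of the other 4, with the animal as a fixed block. P-values were 2-sided and Benjamini-Hochberg adjusted over all probe sets tested, and a call was an adjusted p under 0.05. The fits were first tested on simulated data. Intervals are at 95%.

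Arrays with 1 number come from 1 rat per the titles, so numbers pair regions and not lines. Their deviations correlated at a mean of 0.0139 over 120 pairs from 1 rat and at -0.00627 over 600 pairs from different rats. Genes named with full values were those with the widest spans, those with the smallest p for line or interaction and those on chromosome 4. Symbols came from the platform's probe table, and all 25 genes matched RefSeq (GRCr8), which gave chromosomes. Promoter windows from RefSeq (GRCr8) matched 18 of the 25 genes. Alternatives covered normalization, filter, prior, block, probe set, each rat and the 7 arrays. With log2 values no pseudocount was needed.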

Additional observations from a re-analysis of the deposited data

Results flagged for a closer look

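In the groups of 6 arrays (a region and a line), 43 values of the named channel probe sets lay further from the nearest of the other 5 than Dixon's 95% limit allows, among 20 probe sets in 10 groups. Chance flags about 1 in 20 groups. Of the 43, 27 were on the 7 arrays that stand apart. Values are log2 signal, with the nearest other array of the group after it.

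On hippocampus congenic 3, Scn4b was highest at 11.05 (next 9.99), Scn3b was lowest at 12.66 (next 13.37) and Cacna2d3 was lowest at 11.08 (next 11.88). On the same array, Cacnb2 was lowest at 10.31 (next 10.77) and Scn3a was highest at 11.44 (next 10.81). On accumbens NP 8, Scn4b was lowest at 9.95 (next 11.68), Cacng3 was lowest at 9.76 (next 10.16) and Cacnb4 was lowest at 7.39 (next 8.07). On the same array, Scn3b was highest at 13.63 (next 12.60). On hippocampus NP 8, Scn4b was highest at 12.12 (next 9.97), Scn3b was lowest at 12.66 (next 13.44) and Scn3a was highest at 11.50 (next 10.84). On accumbens congenic 9, Cacnb3 was highest at 10.26 (next 10.04), Scn1a was highest at 12.05 (next 11.69) and Cacng3 was lowest at 6.99 (next 10.04). On the same array, Cacna1d was lowest at 7.97 (next 8.60), Scn3a was lowest at 10.18 (next 11.07) and Cacna2d1 was lowest at 9.18 (next 10.84). Also on accumbens congenic 9, Cacna1c was highest at 9.66 (next 9.26). On amygdala congenic 3, Cacng3 was lowest at 10.05 (next 10.73), Scn3b was highest at 13.48 (next 12.77) and Cacna1i was highest at 8.18 (next 7.90). On hippocampus NP 11, Cacnb4 was lowest at 6.60 (next 7.60), Cacna1d was lowest at 8.57 (next 9.00) and the second probe set of Cacna1b was lowest at 8.31 (next 8.56). On the same array, Cacna1c was highest at 9.73 (next 9.32). On amygdala NP 6, Cacna2d3 was highest at 11.83 (next 11.29).

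Scn4b had 11.68 on accumbens congenic 10, the lowest of its group (next 12.06). Cacng8 had 7.58 on frontal cortex congenic 2, the lowest of its group (next 8.27) and 8.01 on frontal cortex NP 7, the lowest of its group (next 8.35). Cacng3 had 10.55 on amygdala NP 8, the lowest of its group (next 10.96). Cacna1h had 9.15 on accumbens congenic 4, the highest of its group (next 9.00) and 8.301 on frontal cortex NP 6, the lowest of its group (next 8.44). Cacnb4 had 7.34 on amygdala congenic 10, the lowest of its group (next 7.56) and 7.98 on striatum NP 7, the lowest of its group (next 8.29). Cacnb1 had 9.86 on hippocampus congenic 9, the lowest of its group (next 10.23). Cacna2d3 had 11.16 on accumbens congenic 10, the lowest of its group (next 11.65). Scn2a had 11.68 on amygdala NP 8, the lowest of its group (next 11.94). Cacna2d1 had 10.59 on hippocampus congenic 1, the lowest of its group (next 10.93). Cacng2 had 9.24 on amygdala NP 5, the lowest of its group (next 9.41). Cacna1c had 8.94 on striatum congenic 4, the lowest of its group (next 9.19), 9.07 on frontal cortex congenic 2, the highest of its group (next 8.93) and 8.94 on accumbens NP 5, the lowest of its group (next 9.15).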

How the results depend on the processing

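All line and interaction counts stayed at 0 under every alternative run, and no value of a named gene followed through them changed direction. Other probe sets of a gene were compared there in only 1 region. Over the 5 regions, probe sets of Cacna1a and of Cacnb1 were called in opposite directions in 2 regions each, and those of Cacna1b in 1. Of the alternatives to counts of calls, 353 stayed within 1.5 times the reported count and 8 did not. With the 60th percentile filter, under which members drop out, the higher calls were 2 in accumbens and 9 in striatum, and the lower calls 7 in amygdala and 9 in frontal cortex. With quantile normalization the higher calls in amygdala were 4 and the lower calls in striatum 1. Without the arrays that stand apart the lower calls in amygdala were 18, and 5 probe sets differed at least 2-fold. The cause was not tested beyond the smaller number of probe sets in the first. Of the values of named genes, 455 kept their direction and side of the threshold, and Cacnb1 in striatum did not on its other probe set (0.039). Leaving out each rat in turn changed no call of a named gene. With no replicate block (the animal left out), 7 probe sets were higher in accumbens and 10 in amygdala, and no call of a named gene changed. A random replicate block over all arrays gave 0.122 for Cacna2d1 between lines, as reported. Another background correction was not run, since the table holds summarized values. Centring on array medians moved an array's median by -0.0433 to 0.08. Cacna1e, Cacna1f, Scn10a and the second probe set of Cacna1a lie nearest to the signal limit.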
